A study of Mus musculus with 24 samples.

Results

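Corrected delEx44 muscle was compared with WT muscle at 4 weeks of age, in sedentary mice, to see what still set treated muscle apart from healthy muscle. The comparison took 6 of the 24 libraries of the series: the 3 sedentary corrected and the 3 sedentary WT quadriceps libraries, chosen by their labels. All mice were on the C57BL/6 strain. The delEx44 mouse, which lacks exon 44 of Dmd, models Duchenne muscular dystrophy. The corrected animals carried the same deletion and received, by intraperitoneal injection on postnatal day 4, an AAV9 vector for the guide RNA (self-complementary genome) and an AAV9 vector for SpCas9 (single-stranded genome), each at 8e13 vector genomes per kg. The labels give the injection for the delEx44 mice alone and name no injected WT mouse, so effects of the remaining disease, of editing and of the vectors cannot be told apart here. The 3 uninjected delEx44 libraries of the same age are given beside the values as the untreated level. Replicates are libraries that the labels number separately; the labels say no more of the mice behind them, so p-values measure the spread between these libraries, which may be technical.

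Dystrophin links the actin cytoskeleton of the muscle fibre to the sarcolemma and the matrix outside it through the dystrophin-associated glycoprotein complex. Without it, fibres tear during contraction, die and are replaced by regenerating fibres, while macrophages and other immune cells enter the tissue. Interferon, made on sensing of foreign or displaced nucleic acid, switches on antiviral genes and the antigen presentation genes of the major histocompatibility complex (MHC) in many cell types, fibres and macrophages included.

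At the level of single genes no difference passed the test. Of 15013 genes tested, 0 (0%) had an adjusted p under 0.05 by edgeR's quasi-likelihood test with Benjamini-Hochberg adjustment, and the smallest adjusted p was 0.0861, shared by Irf5 and Slamf9. Before adjustment, 871 genes (5.8%) stood higher and 626 (4.17%) lower in corrected muscle with p under 0.05. In 1218 genes (8.11%) all 3 corrected libraries were above all 3 WT libraries, and in 1100 (7.33%) all were below. These shares of all genes are the background for the counts of list members given below. limma-voom also called 0 genes, whereas DESeq2 called 220, of which 197 were higher and 23 lower in corrected muscle. The DESeq2 calls held 24 of the 54 interferon genes and 27 of the 34 macrophage genes listed for this report. Over all genes the share was 220 of 15013. Without corrected replicate 3, edgeR called 68 genes, 60 of them higher, and 59 of the 68 were among the DESeq2 calls. Below, a single gene is said to stand higher or lower by its values, and none of the names at 4 weeks carries an edgeR call on all 6 libraries. In counts of list members, those that stood higher or lower are the members with an unadjusted p under 0.05. The genes with the smallest p over all genes were named only where WT and corrected libraries did not overlap. For them that gap is no separate result.

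WT replicate 3 stood apart from the other 5 libraries before any comparison was made. It lay at 56.6 on a first principal component that held 44.8% of the variance, against -5.51 to -16.6 for the others, and its rank correlation with the other libraries was 0.987 to 0.988, against 0.991 to 0.996 among them. Ibsp, a bone matrix gene, was at 0, 0 and 54.6 CPM (TMM-scaled counts relative to library size) in WT replicates 1 to 3. Col2a1, the cartilage collagen, was at 8.03, 6.75 and 181 CPM. Ngp, a granule gene of marrow neutrophils, was at 0, 0.0361 and 57.3 CPM, and Slc4a1, the red cell anion exchanger, at 0.157, 0.361 and 30.8 CPM. RNA of bone, cartilage and marrow genes was thus high in this library alone among the WT and corrected libraries. The fibre markers Ckm, Acta1, Myh4 and Ttn were within the range of the other WT libraries in it. The slow fibre list was not. Its mean log2 CPM was 4.523 in WT replicate 3, against 6.158 or more in the other WT libraries. Leaving the library out left 14983 genes, of which 0 (0%) passed the adjusted threshold, 836 (5.58%) stood higher and 578 (3.86%) lower with an unadjusted p under 0.05. Reads counted to genes were 3.06e7 to 3.79e7 per library, and the Y-linked genes were expressed in all 6.

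**Figure D1:**
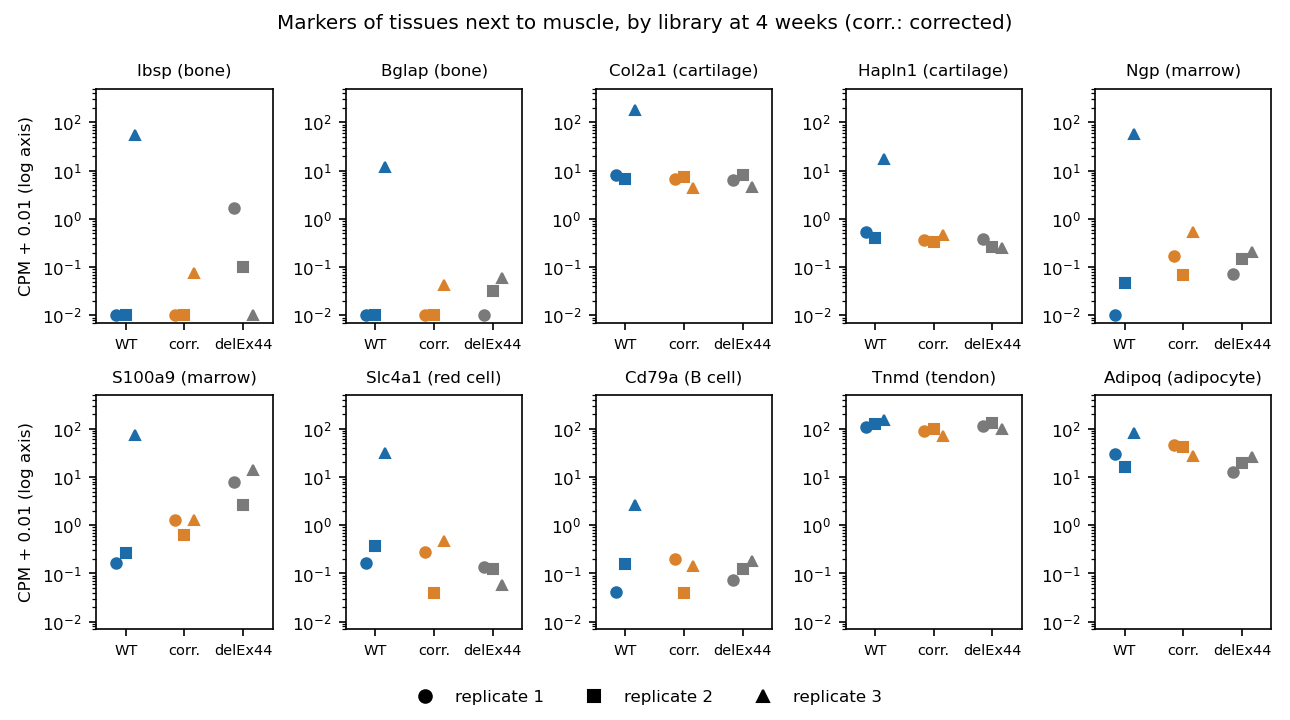
Level of 10 marker genes of tissues that lie next to muscle or in marrow, in CPM plus 0.01 on a log axis, for each WT, corrected and delEx44 library at 4 weeks (1 point per library). WT replicate 3 (triangle) is far above the other libraries for the bone, cartilage, marrow, red cell and B cell genes, and less far above them for the tendon gene Tnmd and the fat gene Adipoq.

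Dmd itself stood lower in corrected than in WT muscle. It read 240, 208 and 204 CPM in the 3 WT libraries, 155, 156 and 172 CPM in the 3 corrected libraries and 36.1, 41.8 and 41.2 CPM in the 3 delEx44 libraries. These 3 groups did not overlap: the mean of corrected muscle was 74.1% of the WT mean and that of delEx44 muscle 18.3%. The log2 difference from WT was -0.43 ± 0.079 (SE, n = 3 and 3; edgeR adjusted p = 0.117), and -0.48 ± 0.086 without WT replicate 3 (edgeR adjusted p = 0.16). Without corrected replicate 3, which had the highest Dmd of its group, the difference was -0.48 with an edgeR adjusted p of 0.0481. With any other single library of the 2 groups left out, edgeR called 0 genes, so Dmd was not called. The Dmd difference was -0.48 to -0.35 when each library was left out in turn. A count per gene does not show which exons or which reading frame the reads came from. In other mice of the series Dmd was again lower: by -0.74 ± 0.097 after a month of downhill running (n = 2 and 2; edgeR adjusted p = 0.0252) and by -0.66 ± 0.161 at 18 months (n = 3 and 3; edgeR adjusted p = 0.0514).

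Dmd lies on the plus strand of chrX:82948870-85206141 (GRCm38, GENCODE vM21), and its full-length muscle transcript has 79 exons. Exon 44, at chrX:84022265-84022412, is coding and 148 bases long, so its loss shifts the reading frame. The deleted exon is shown first, in lower case, 5′ to 3′. The second sequence is the join that remains, with the last 21 bases of exon 43 followed by exon 45 (chrX:84271952-84272127), and the capitals mark the first stop codon in the shifted frame, which begins at base 47 of exon 45.
exon 44: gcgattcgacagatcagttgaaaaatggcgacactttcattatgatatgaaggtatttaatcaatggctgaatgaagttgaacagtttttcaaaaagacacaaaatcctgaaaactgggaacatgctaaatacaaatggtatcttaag
exon 43 joined to exon 45: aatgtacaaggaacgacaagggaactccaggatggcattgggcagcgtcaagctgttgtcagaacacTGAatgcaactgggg
This stop would be codon 2115 of the 3679 codons, stop included, of the full-length reading frame. The sequences are those of the reference transcript, not of reads from these mice.

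The dystrophin complex list held 23 genes, Dmd included. With an unadjusted p under 0.05, 2 stood higher (Aqp4 and Nos1) and 2 lower (Dmd and Sgcd). Each is 8.7% of the list, against 5.8% of all genes higher and 4.17% lower. The median log2 difference was -0.04, against -0.01 over all genes. Without WT replicate 3, 0 stood higher and 3 lower, Dmd and Sgcd among them, and the median was -0.09. Utrn, which encodes the dystrophin relative utrophin, was at 70.9, 74.2 and 66.6 CPM in WT and 70.7, 67 and 73.6 CPM in corrected muscle, and the groups overlapped. Sgcd, a sarcoglycan, stood lower by -0.37 ± 0.13 (edgeR adjusted p = 0.357), with corrected replicate 3 inside the WT range. Aqp4, the water channel of the fibre membrane, was at 124, 129 and 113 CPM in WT and 176, 164 and 149 CPM in corrected muscle, and Nos1, the nitric oxide synthase of the complex, at 22.5, 20.1 and 17.3 against 23.3, 29.6 and 26.7 CPM. Both were above WT in every corrected library, by 0.42 ± 0.159 and 0.41 ± 0.172 on the log2 scale (edgeR adjusted p = 0.4 and 0.44). In delEx44 muscle both lay below WT, at 50.7 to 68.9 and 10.7 to 16.6 CPM.

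**Figure D2:**
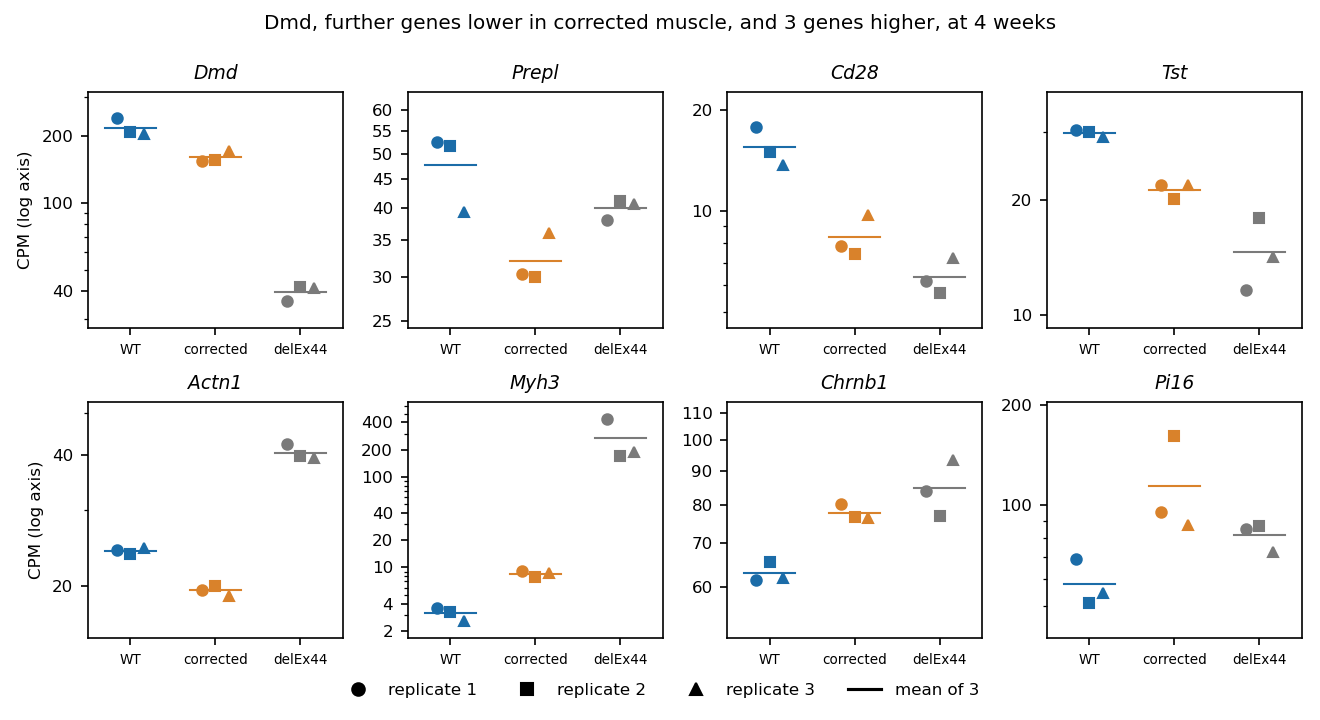
Level of Dmd, 4 further genes lower in corrected muscle (Prepl, Cd28, Tst, Actn1) and 3 genes higher (Myh3, Chrnb1, Pi16) at 4 weeks. CPM are shown on log axes by library and group, with libraries as points and means of 3 as lines. Dmd falls into 3 separate levels, and corrected muscle lies outside both other groups for Prepl, Actn1 and Pi16.

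All 54 listed interferon response genes were measured, and all 54 had a positive log2 difference from WT, with a median of 0.73 against -0.01 over all genes. With an unadjusted p under 0.05, 43 stood higher and 0 lower, set against 5.8% of all genes higher. In 48 of the 54 all corrected libraries were above all WT libraries, against 8.11% of all genes. Without WT replicate 3 the median was 0.72, 53 were positive and 38 stood higher. The mean log2 CPM of the list was 3.01, 3.05 and 3.17 in the WT libraries, 3.98, 4.06 and 3.58 in the corrected and 4.68, 4.21 and 4.26 in the delEx44 libraries. The 3 groups were again in separate ranges, and corrected replicate 3 was nearest to WT. The median difference of delEx44 from WT was 1.12, a comparison that uses the same WT libraries.

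Irf5, a transcription factor that links Toll-like receptors to interferon and is on the nucleic acid sensing list, had the smallest p of all genes. It was at 14.2, 12.4 and 11.3 CPM in WT, 23.6, 22.4 and 18.3 CPM in corrected and 33.5, 30.3 and 34.7 CPM in delEx44 muscle (chr6:29526625-29541871, plus strand). The 3 groups did not overlap, though a gap between WT and corrected libraries was a condition for naming Irf5. The difference from WT was 0.76 ± 0.111 (edgeR adjusted p = 0.0861). Of the interferon list, Sp100, a nuclear body protein, was at 17.1, 17.6 and 17.8 CPM in WT and 29.5, 31.9 and 24.4 CPM in corrected muscle, a difference of 0.71 ± 0.12 (edgeR adjusted p = 0.117). Oasl1, which curbs translation of Irf7, was at 1.45, 1.52 and 2.47 against 6.07, 6.21 and 3.73 CPM, a difference of 1.55 ± 0.278 (edgeR adjusted p = 0.117). Each of these was lowest, among the corrected libraries, in replicate 3.

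Ddx60, an RNA helicase of antiviral defence, showed the same order in a sharper form. It was at 2.68, 3.14 and 3.33 CPM in WT and at 11.9, 12.7 and 4.75 CPM in corrected muscle, so that corrected replicates 1 and 2 were at the delEx44 level of 9.45 to 12.7 CPM and replicate 3 was near WT. The difference from WT was 1.68 ± 0.308 (edgeR adjusted p = 0.117). Rtp4, a chaperone of membrane receptors, was at 7.15, 7.04 and 7.29 against 15.3, 15.6 and 10.2 CPM (0.93 ± 0.185, edgeR adjusted p = 0.119). Irf7, the factor that amplifies interferon production, was at 11.9, 12 and 14.6 against 40.6, 54.8 and 26.5 CPM (1.66 ± 0.35, edgeR adjusted p = 0.133). Zbp1, a sensor of Z-form nucleic acid, was at 1.98, 2.06 and 3.75 against 7.83, 11.7 and 5.11 CPM (1.65 ± 0.416, edgeR adjusted p = 0.188). WT and corrected libraries did not overlap for any of these 4 genes. At the other end of the list Gbp7 (0.02), Ifi35 (0.07), Igtp (0.11) and Irgm2 (0.20) had the smallest log2 differences, and their groups overlapped. Several of these genes belong to families of close copies (Oas, Ifit, Gbp, Trim30 and MHC class I), whose reads the counting may have split between copies.

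The promoters of the listed genes were searched for the core of the interferon-stimulated response element, the site through which interferon switches on its target genes, bound by IRF proteins. The letters searched were GAAANNGAAA on either strand (TTTCNNTTTC on the printed strand), overlapping matches included, in the 250 bases before each gene's start in the RefSeq promoter table (GRCm38.p6). Of the 54 interferon genes 40 had an entry, and 21 of the 40 (52.5%) held a match, against 390 of 11800 tested genes with an entry (3.31%). The share was 3 of 15 for the MHC class I list, 4 of 28 for the macrophage list and 1 of 16 for the nucleic acid sensing list. The 3 promoters below are those of the listed genes that held a match and had the smallest p, printed 5′ to 3′ on the gene's strand with the matches in capitals: Ddx60 at chr8:61927837-61928086 (plus strand, 2 matches), Oas1a at chr5:120907526-120907775 (minus strand, 2 overlapping matches) and Rsad2 at chr12:26456453-26456702 (minus strand, 1 match).
Ddx60: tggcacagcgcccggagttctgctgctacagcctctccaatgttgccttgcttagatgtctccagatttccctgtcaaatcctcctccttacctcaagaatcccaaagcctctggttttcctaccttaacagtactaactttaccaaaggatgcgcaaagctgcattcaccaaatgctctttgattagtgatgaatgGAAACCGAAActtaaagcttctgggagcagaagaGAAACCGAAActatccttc
Oas1a: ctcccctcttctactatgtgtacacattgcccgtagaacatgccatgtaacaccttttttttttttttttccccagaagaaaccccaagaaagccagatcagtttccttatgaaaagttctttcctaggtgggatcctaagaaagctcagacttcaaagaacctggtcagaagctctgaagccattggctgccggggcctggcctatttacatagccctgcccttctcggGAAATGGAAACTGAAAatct
Rsad2: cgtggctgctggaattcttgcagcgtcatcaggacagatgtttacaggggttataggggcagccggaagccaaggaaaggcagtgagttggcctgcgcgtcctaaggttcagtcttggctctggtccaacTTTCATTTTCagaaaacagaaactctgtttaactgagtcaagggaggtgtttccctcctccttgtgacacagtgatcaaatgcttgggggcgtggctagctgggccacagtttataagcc
Oas1a, an enzyme that activates RNase L, was at 2.17, 1.88 and 2.44 CPM in WT and 6.16, 7.55 and 4.32 CPM in corrected muscle. Rsad2, the antiviral protein viperin, was at 9.83, 11.6 and 13.6 against 27.2, 21.9 and 18.6 CPM. WT and corrected libraries were apart for both. Sp100, Oasl1 and Irf7, which also stood higher, held no match in this window. Gbp7, Igtp and Irgm2, among the smallest differences of the interferon list, each held 1 match. Whether a match goes with the size of the difference was not tested. A match describes the letters only, and binding was not measured.

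**Figure D3:**
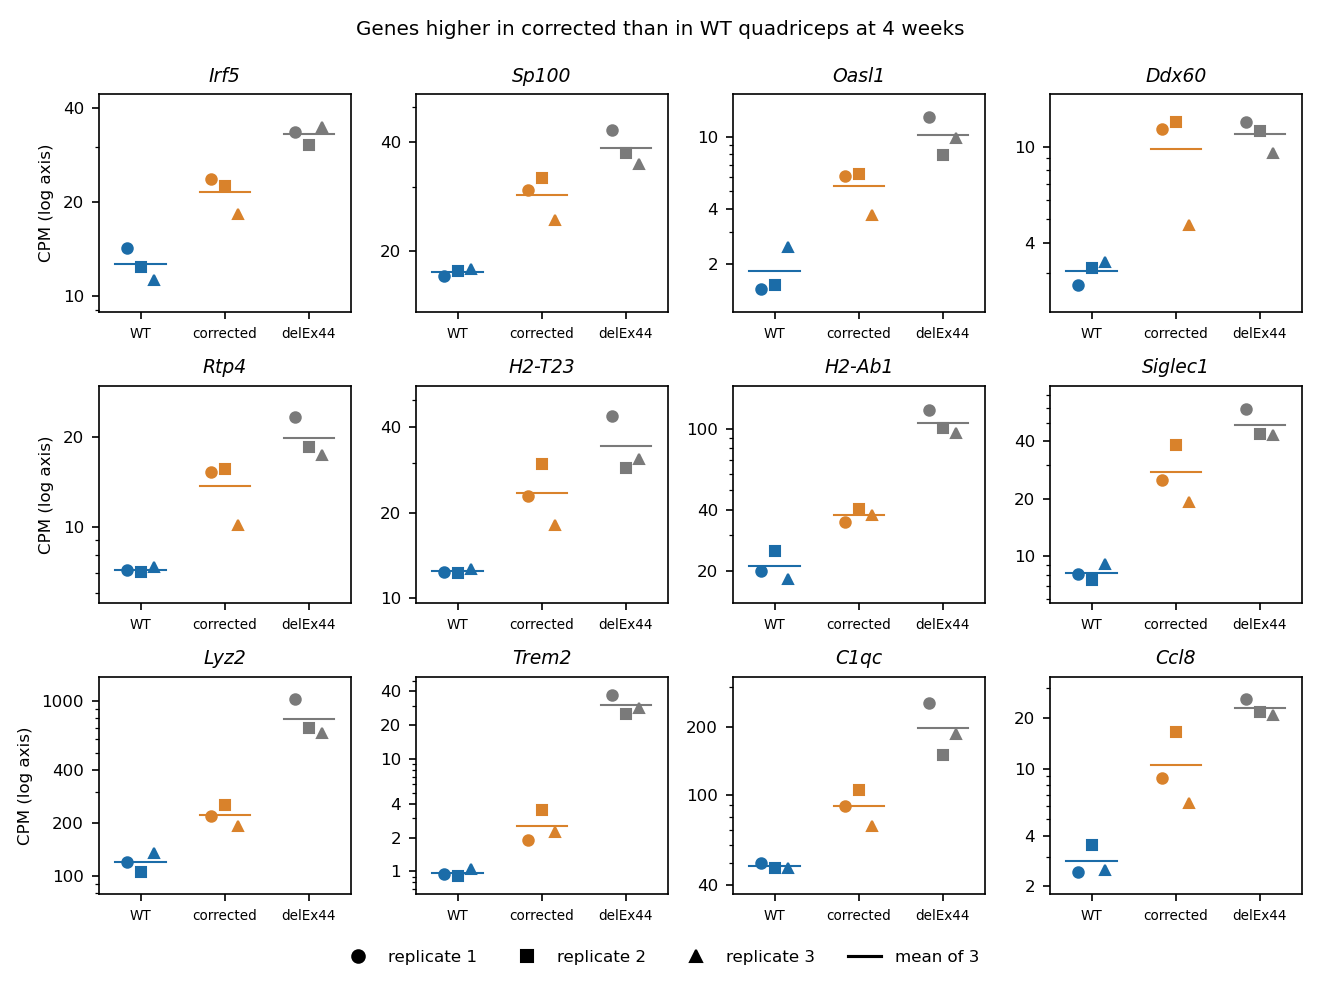
Level of 12 genes that stood higher in corrected muscle, in CPM on log axes, by library and group at 4 weeks. Points are libraries and lines are means of 3. In each panel the corrected libraries lie above the WT libraries, which was a condition for naming some of these genes. Replicate 3 (triangle) is the lowest corrected library in 10 of the 12 panels, H2-Ab1 and Trem2 being the exceptions.

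Genes that sense nucleic acid and genes that present antigen stood higher beside the interferon genes. Of 21 sensing genes 12 stood higher and 0 lower with an unadjusted p under 0.05 (median 0.43, also 0.43 without WT replicate 3), among them the receptor Tlr9 (1.30) and the RNA sensor Ifih1 (0.68). Irf3, Tbk1 and Mavs, on the same list, had log2 differences of -0.00, 0.01 and -0.05. Of 19 genes of MHC class I and peptide loading 17 were tested and 13 stood higher, 0 lower (median 0.59, and 0.61 without WT replicate 3). H2-T23, a nonclassical class I gene, was at 12.3, 12.3 and 12.7 CPM in WT and 22.9, 29.6 and 18.1 CPM in corrected muscle (0.92 ± 0.199, edgeR adjusted p = 0.131). Tap1, the peptide transporter, was at 6.77, 7.18 and 7.41 against 13.4, 14.9 and 9.7 CPM. Neither pair of groups overlapped. The proteasome activator genes Psme1 and Psme2 were level with WT, at -0.00 and -0.03 on the log2 scale. Ifih1, Zbp1 and Ddx58 are on both the interferon and the sensing list, so these lists are not separate sets.

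The macrophage list stood higher by a larger median than the interferon list, but lay much further below delEx44 muscle. Of its 34 genes 31 stood higher and 1 lower with an unadjusted p under 0.05 (median 0.88). In 30 all corrected libraries were above all WT libraries, against 8.11% of all genes. Without WT replicate 3 the median was 1.03, and 33 stood higher and 0 lower. The median difference of delEx44 from the same WT libraries was 2.88. The mean log2 CPM of the list was 2.57, 2.60 and 3.08 in WT, 3.57, 3.92 and 3.41 in corrected and 6.29, 5.78 and 5.87 in delEx44 muscle. WT replicate 3 was the highest of the WT libraries, and the groups did not overlap. In bulk muscle, more cells of a type and more RNA of its genes per cell cannot be told apart.

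Lyz2, the lysozyme of macrophages and neutrophils, was at 120, 105 and 135 CPM in WT, 218, 255 and 191 CPM in corrected and 1017, 694 and 651 CPM in delEx44 muscle. The difference of corrected from WT was 0.88 ± 0.17 (edgeR adjusted p = 0.119), and 0.97 ± 0.194 without WT replicate 3. Siglec1, a sialic acid receptor of macrophages that interferon induces, is on no list and was at 8.03, 7.55 and 9.07 CPM in WT and 24.9, 38.4 and 19.2 CPM in corrected muscle, against 43 to 58.9 CPM in delEx44 (1.74 ± 0.264, edgeR adjusted p = 0.11). Trem2, a lipid receptor of macrophages in damaged tissue, was at 0.945, 0.903 and 1.04 against 1.89, 3.53 and 2.24 CPM, and at 25.4 to 37.4 CPM in delEx44 muscle (1.40 ± 0.279, edgeR adjusted p = 0.119). All 3 genes kept the groups apart, with Siglec1 in corrected muscle nearer to the delEx44 level than Trem2 was. The 1 macrophage gene that stood lower was Spp1, osteopontin, which bone also makes. It was at 1.73, 3.36 and 122 CPM in WT and 7.02, 4.46 and 4.49 CPM in corrected muscle, and its log2 difference went from -2.99 to 1.09 when WT replicate 3 was left out.

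Of 11 genes of the resident-type macrophages of muscle 5 stood higher and 0 lower with an unadjusted p under 0.05 (median 0.38). By sign alone 9 of the 11 were positive. The median was 0.38 with 4 higher without WT replicate 3, and 0.12 without corrected replicate 2. Folr2, a folate receptor, was at 19.8, 16.7 and 17.1 CPM in WT and 26.8, 36.8 and 25 CPM in corrected muscle (0.73 ± 0.167, edgeR adjusted p = 0.135). Fcna, a ficolin, was at 8.69, 7.55 and 10 against 14.9, 28.9 and 12.4 CPM, and at 9.15 to 12.7 CPM in delEx44 muscle (1.10 ± 0.269, edgeR adjusted p = 0.169). Its highest value was in corrected replicate 2, without which the difference was 0.64. Cd163 (-0.10) and Lyve1 (0.20), 2 further markers of these cells, overlapped between groups.

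Of the MHC class II genes, which macrophages and other presenting cells express, 7 of 10 stood higher and 0 lower (median 0.73, and 0.72 without WT replicate 3). H2-Ab1 was at 20.1, 25.1 and 18.3 CPM in WT and 34.7, 40.5 and 37.6 CPM in corrected muscle, below the 95.1 to 124 CPM of delEx44 (0.83 ± 0.167, edgeR adjusted p = 0.12). H2-Aa and Cd74 differed by 0.81 and 0.73. The groups were apart for all 3 genes. Unlike most interferon genes, H2-Ab1 and H2-Aa were not lowest in corrected replicate 3, which read 53 CPM for H2-Aa against 46.5 and 52.7 CPM in replicates 1 and 2.

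Of 22 chemokine genes tested 8 stood higher and 0 lower with an unadjusted p under 0.05 (median 0.61). By sign alone 19 of the 22 were positive. With WT replicate 3 left out, 5 stood higher and the median was 0.75, and without corrected replicate 1 the median was 0.34. Of 20 complement genes 15 stood higher and 0 lower (median 0.55), and 15 higher and 1 lower without WT replicate 3 (median 0.69). Ccl8, a monocyte attractant, was at 2.42, 3.54 and 2.5 CPM in WT, 8.86, 16.5 and 6.27 CPM in corrected and 20.9 to 26 CPM in delEx44 muscle (1.91 ± 0.33, edgeR adjusted p = 0.117). Ccl2, the main attractant of inflammatory monocytes, was at 0.945, 1.95 and 3.09 against 2.81, 1.72 and 1.55 CPM, with overlap, and at 25.5 to 37 CPM in delEx44 muscle. Among complement genes, Cfp (properdin) was at 16.4, 15.5 and 16.3 against 36.3, 37 and 23.7 CPM, and C4b at 23.8, 14 and 31.2 against 44.3, 91.6 and 39.5 CPM. C1qa, C1qb and C1qc, which are also on the macrophage list, differed by 1.01, 0.91 and 0.88.

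Most lymphocyte genes were at low levels. Of 30 listed genes 21 were tested, of which 13 had a positive difference (median 0.55), and 5 stood higher and 4 lower. Without WT replicate 3, 18 of 21 were positive (median 1.01), and 4 stood higher and 1 lower (in that library the B cell gene Cd79a was at 2.65 CPM, against at most 0.189 CPM in the other WT and corrected libraries). Cd28, a costimulatory receptor, was at 17.8, 14.9 and 13.7 CPM in WT, 7.86, 7.4 and 9.73 CPM in corrected and 5.68 to 7.2 CPM in delEx44 muscle (-0.90 ± 0.207, edgeR adjusted p = 0.133). These levels were far above those of Cd3e, at most 0.108 CPM in the 6 libraries. Cd28 was also lower in corrected muscle at 18 months, by -1.01 ± 0.137 (edgeR adjusted p = 0.00979).

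Of 26 listed genes of regenerating fibres, 3 (11.5%) stood higher and 0 lower with an unadjusted p under 0.05. Over all genes the shares were 5.8% and 4.17%. The median was 0.07, against a median of 1.79 for delEx44. Without WT replicate 3 the median was 0.15 and 2 stood higher, Myod1 no longer being one. In 7 of the 26 all corrected libraries were above all WT libraries, and in 1 all were below. The shares over all genes were 8.11% and 7.33%. The mean log2 CPM of the list was 4.51, 4.70 and 4.69 in WT and 4.92, 4.86 and 4.75 in corrected muscle, so the groups did not overlap. The 3 that stood higher were the embryonic and perinatal myosins Myh3 and Myh8 and the myogenic factor Myod1. Myh3 was at 3.56, 3.25 and 2.59 CPM in WT, 9.07, 7.93 and 8.61 CPM in corrected and 436, 169 and 190 CPM in delEx44 muscle (1.45 ± 0.418, edgeR adjusted p = 0.267). Myh8 was at 9.92, 8.7 and 11.5 against 18.8, 17.5 and 15.4 CPM. The groups were apart for both myosins, at levels far under those of delEx44. Myog, a differentiation factor, and the myosin partner Actc1 overlapped, at 0.20 and 0.01.

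The neuromuscular junction genes differed by a median of 0.12 (0.11 without WT replicate 3), and 4 of 20 stood higher, 0 lower. Chrnb1, the beta subunit of the acetylcholine receptor, was at 61.6, 65.4 and 61.9 CPM in WT and 80.1, 76.7 and 76.4 CPM in corrected muscle, against 76.8 to 93.4 CPM in delEx44 (0.30 ± 0.071, edgeR adjusted p = 0.133). The corrected libraries were close to each other and above every WT library. Among genes of the fast fibre 10 of 19 were lower in all corrected than in all WT libraries, against 7.33% of all genes. Yet 1 of the 19 had an unadjusted p under 0.05. The median was -0.16 (-0.17 without WT replicate 3), against -0.88 for delEx44. Mybpc2, a fast myosin-binding protein, was at 8541, 8195 and 8684 CPM in WT and 6923, 7202 and 7698 CPM in corrected muscle. Median differences were near 0 for oxidative phosphorylation (-0.01 over 35 genes), glycolysis (0.01 over 24), fatty acid oxidation (0.05 over 26), p53 targets (-0.05 over 22) and collagen and matrix (0.03 over 39). The medians without WT replicate 3 were -0.08 for oxidative phosphorylation, with 3 of 35 genes positive, -0.06 for fatty acid oxidation, with 6 of 26 positive, and -0.03 for glycolysis, so the latter pair changed sign. They were -0.05 for p53 targets and 0.04 for collagen and matrix.

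**Figure D4:**
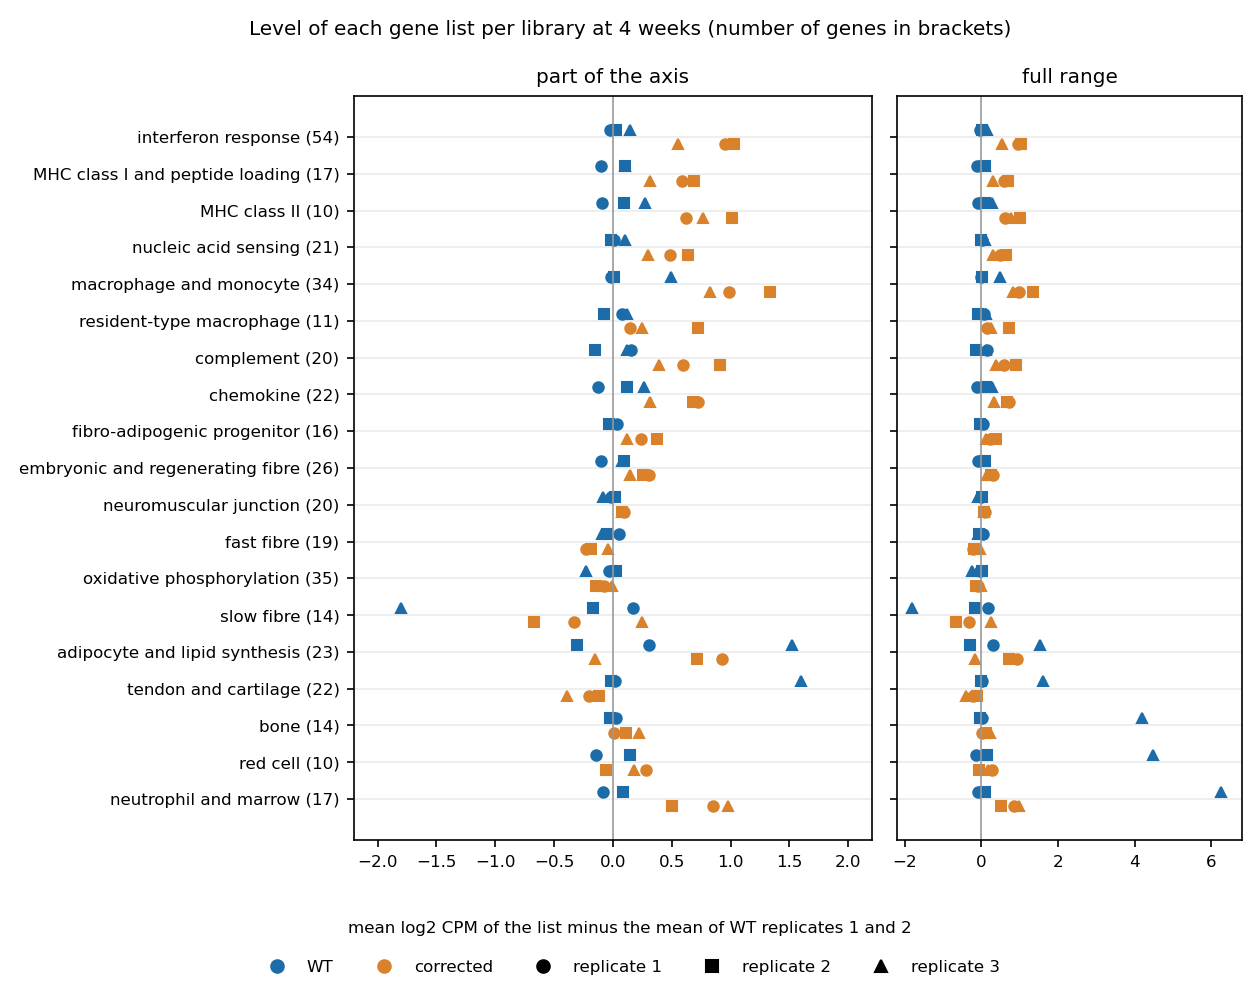
Mean log2 CPM of 19 gene lists in each WT and corrected library at 4 weeks, relative to the mean of WT replicates 1 and 2; the left panel is a part of the axis and the right panel the full range. The corrected libraries lie to the right of the WT libraries for the interferon, MHC, macrophage, complement and chemokine lists, and WT replicate 3 (blue triangle) lies apart for the slow fibre, fat, tendon and cartilage, bone, red cell and marrow lists.

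Several lists took their difference from WT replicate 3. The tendon and cartilage list had a median of -0.76, with 12 of 22 genes lower at an unadjusted p under 0.05, and of -0.25, with 2 lower, without that library. The bone list went from -2.36 (9 of 14 lower) to 0.20 (0 lower), the neutrophil and marrow list from -4.88 (12 of 17 lower) to 1.59 (0 lower), and the red cell list from -4.77 (7 of 10 lower) to 0.17 (0 lower). Fat and lipid synthesis genes went from -0.17 to 0.27, cell cycle genes from -0.21 to 0.09, and slow fibre genes from 0.12 to -0.26. Scd1, a desaturase of lipid synthesis, was at 354, 304 and 1872 CPM in WT and 290, 249 and 82.9 CPM in corrected muscle. Mkx, a tendon transcription factor, differed less by library, at 7.15, 5.96 and 8.51 against 4.43, 5.07 and 3.13 CPM, and kept a difference of -0.64 ± 0.217 without WT replicate 3 (edgeR adjusted p = 0.37).

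Leaving that library out also brought forward genes of immune cells among those that stood higher. Rac2, a GTPase of blood cells, was at 3.4, 2.85 and 11.3 CPM in WT and 6.91, 8.42 and 5.54 CPM in corrected muscle, and its log2 difference went from 0.24 to 1.15 ± 0.198 (edgeR adjusted p = 0.16). Spi1, the myeloid factor PU.1, was at 3.15, 3.18 and 5.09 against 7.67, 9.44 and 5.41 CPM, and went from 0.98 to 1.25. Cd84 and Pirb, both receptors of myeloid cells, went from 0.91 to 1.17 and from 0.83 to 0.99. In each case WT replicate 3 was the highest WT library. The genes were picked for a small p with that library left out, so this is no separate result. The same rule also picked genes that stood lower, Pak1 and Eif2ak4 among them, at -0.30 and -0.37 with all libraries kept.

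Prepl, an oligopeptidase-like protein, had the smallest p of all genes once WT replicate 3 was left out. It was at 52.5, 51.7 and 39.3 CPM in WT, 30.4, 30 and 36 CPM in corrected and 38 to 41.1 CPM in delEx44 muscle. Its difference was -0.57 ± 0.115 (edgeR adjusted p = 0.119), and -0.70 ± 0.1 without that library (edgeR adjusted p = 0.16). The lowest level was thus in corrected muscle. Actn1, the alpha-actinin of non-muscle cells, was at 24.3, 23.7 and 24.5 against 19.7, 20.1 and 19 CPM, and at 39.4 to 42.5 CPM in delEx44 (-0.30 ± 0.06, edgeR adjusted p = 0.119). For Actn1 too the corrected libraries were the lowest of the 3 groups. Ndufaf5, an assembly factor of respiratory complex I, and Tst, a mitochondrial sulfurtransferase, were lower by -0.34 and -0.49, and lower still in delEx44.

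For some genes that stood higher, delEx44 muscle lay below corrected muscle. Pla1a, a phospholipase that releases lysophosphatidylserine, was at 14, 11 and 10.3 CPM in WT, 17.9, 24.3 and 19.8 CPM in corrected and 13, 10.7 and 12.9 CPM in delEx44 muscle (0.81 ± 0.132, edgeR adjusted p = 0.11). Pi16, a marker of a fibroblast population of muscle, was at 68.9, 50.9 and 54.4 against 95.6, 161 and 87.4 CPM, with 72.5 to 86.7 CPM in delEx44 (0.98 ± 0.204, edgeR adjusted p = 0.124). Corrected muscle had the highest levels of the 3 groups for both. Of 16 genes of fibro-adipogenic progenitors, which lie between the fibres, 6 stood higher and 0 lower (median 0.19, and 0.17 without WT replicate 3).

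Clock genes differed in both directions. Arntl, the activator Bmal1, was at 23, 24.4 and 17.4 CPM in WT and 46, 50.8 and 25.5 CPM in corrected muscle, and Per2, a repressor, at 6.83, 6.97 and 11 against 1.4, 3.44 and 5.24 CPM. Of 18 clock genes 3 stood higher and 5 lower (2 and 1 without WT replicate 3). The hour at which each muscle was taken is not given in the sources used here, and its part in the other differences was not tested.

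The same contrast was read in 2 further sets of mice, which share no library with the 4-week set. Run mice, 8 weeks old after a month of downhill running every other day, received the same vector doses (2 corrected and 2 WT libraries). In 1 of these WT libraries the Y-linked genes were at a mean log2 CPM of -3.75, against 5.12 to 5.42 in the other 3, so that group held mice of both sexes. The 18-month mice received other doses, 2.5e14 vector genomes per kg of the guide RNA vector, there single-stranded, and 5e13 of the Cas9 vector (3 and 3 libraries, counted in another table). Of 15013 genes, 3 (0.02%) passed the adjusted threshold by edgeR in run mice: Dmd and Nbea lower and the predicted gene Gm15446 higher, the latter pair named after their values were seen. At 18 months 335 genes (2.34%) were called higher and 348 (2.43%) lower of 14337.

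Interferon genes stood on the same side in both sets. All 54 were positive in run mice, where the median was 0.76 and 37 had an unadjusted p under 0.05 in that direction (4.24% of all genes), and all 54 at 18 months, where the median was 1.38. Only 3 of the 54 were called higher at 18 months by edgeR: Oasl1, Oas2 and Ifi35. The share over all genes was 2.34%. The list's mean log2 CPM at 18 months was 2.80, 2.69 and 2.58 in WT and 3.65, 2.96 and 5.10 in corrected muscle, so corrected replicate 2 was close to WT and replicate 3 far above. In run mice it was 2.77 and 2.49 in WT and 2.93 and 3.83 in corrected muscle. On this list the corrected libraries ranged more widely than the WT libraries in each set.

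The macrophage list had a median of 0.45 in run mice, with 10 of 34 higher at an unadjusted p under 0.05, against 4.24% of all genes. At 18 months its median was 1.42, with 1 of 33 called higher by edgeR, a share near the 2.34% of all genes. Regenerating fibre genes had a median of 0.43 in run mice and 0.52 at 18 months. There 11 of 26 were called higher by edgeR, against 2.34% of all genes. Myh3 stood higher in all 3 sets, by 1.45, 1.98 and 1.47, with an edgeR adjusted p of 0.0223 at 18 months. Chrnb1 did so too, by 0.30, 0.43 and 0.48, with an edgeR adjusted p of 0.0416 at 18 months. Pla1a, by contrast, was at -0.05 ± 0.159 in run mice, and Pi16 at -0.60 ± 0.25. The test of the difference between the 4-week and the run contrast called 0 genes (0%) by edgeR, and 1035 genes (6.89%) had an unadjusted p under 0.05, so no gene is said to differ between them.

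**Figure D5:**
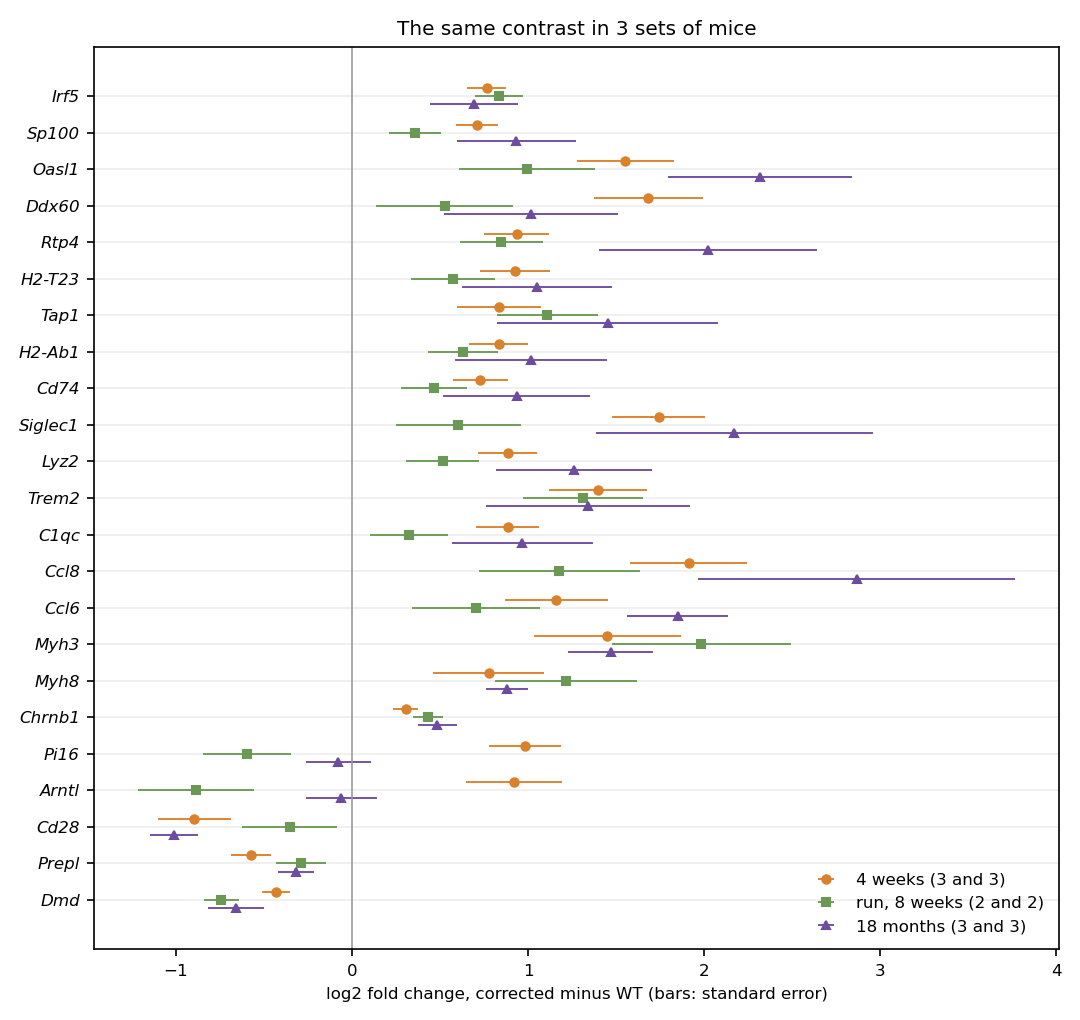
Log2 difference of corrected from WT muscle, with standard errors, for 23 genes at 4 weeks, in run mice and at 18 months. Interferon, MHC, macrophage and chemokine genes, the myosins and Chrnb1 lie to the right of 0 and Cd28, Prepl and Dmd to the left in all 3 sets, while Pi16 and Arntl lie to the right at 4 weeks only.

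Over all genes with an unadjusted p under 0.05 at 4 weeks, the 871 that stood higher kept a positive sign in 71.1% of cases in run mice, where 49.8% of all genes did. At 18 months 848 of them were tested, 77.5% were positive against 52.4% of all genes, and 5.66% were called higher by edgeR against 2.36%. Those that stood lower showed less: 38.3% were positive in run mice, and 53.2% of 553 were positive at 18 months, where 3.26% were called lower against 2.44% of all genes. They were taken with WT replicate 3 included and held 9 of 14 bone, 12 of 17 marrow and 7 of 10 red cell genes listed. Over all genes 4.17% stood lower. With that library left out, 0 genes of those lists stood lower, and the comparison with other mice was not repeated without it.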

How the data were processed

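RNA from mouse quadriceps was sequenced, and the authors deposited whole-number read counts per gene, 24062 genes in each of 2 tables (15 libraries of the 4-week and run mice, 9 of the 18-month mice). Per the submitters' processing notes, the tools were HTSeq, STAR 2.7.2b, Bowtie2 2.3.4.3, Trim Galore, edgeR and SAMtools 1.9, with the mm10 genome. Which tool aligned the reads, the annotation and the strand setting are details not given in the sources used here, so overlapping and antisense genes cannot be separated. The 5 records that name no gene held 30.6% to 33.9% of the counts of the 6 libraries and were left out.

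The deposited counts were tested with edgeR 4.0.16 in R 4.3.3 (filterByExpr, TMM scaling, robust quasi-likelihood F-test), in 1 fit of all 15 libraries, with Benjamini-Hochberg adjustment over all 15013 genes kept and a threshold of 0.05. The 18-month table was fitted by itself. Standard errors are the log2 difference divided by the square root of F. CPM are TMM-scaled, and list levels are mean log2 CPM with a prior count of 2. The fit was tested on simulated counts. DESeq2 1.42.0 and limma-voom (limma 3.58.1) were among the 16 alternatives. Replicates of the 4-week groups are numbered in accession order.

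Members and the 33 gene lists (696 symbols, 689 found, 6 of them under another name) were chosen with earlier results of these data known. Genes were named by rule: Dmd and Utrn, the 10 smallest p per direction among non-overlapping genes of at least 5 CPM, 6 more per direction without WT replicate 3, up to 4 smallest p per list, and 3 markers per neighbouring tissue. Other genes named, mainly those that differed little, were chosen after their values were seen. Positions are from GENCODE vM21 (GRCm38, the same build as mm10), and promoters from RefSeq. Results on some genes are not reported here.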

Additional observations from a re-analysis of the deposited data

Results flagged for a closer look

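At 4 of the 158 named genes the corrected libraries lay wholly on one side of WT at 4 weeks and wholly on the other side at 18 months. The share of all genes that changed sides in this way is not given here. The 2 ages were counted in separate tables, and the difference between them was not tested. Sdc2, a heparan sulfate proteoglycan of the cell surface, was at 66.8, 87.3 and 76.2 CPM in WT and 62, 59.5 and 57.3 CPM in corrected muscle at 4 weeks, and had a log2 difference of 0.27 at 18 months. Aqp4 and Nos1, both linked to the dystrophin complex, were above WT at 4 weeks, by 0.42 and 0.41, and had differences of -0.84 and -0.45 at 18 months. Nqo1, a quinone reductase of the oxidative stress response, was at 10, 10.4 and 10.5 CPM in WT and 11, 12.2 and 12.6 CPM in corrected muscle at 4 weeks, and had a difference of -0.27 at 18 months. Of the 848 genes higher at 4 weeks with an unadjusted p under 0.05, 8 (0.94%) were called lower by edgeR at 18 months. The share over all genes was 2.44%. Of the 553 that stood lower, 9 (1.63%) were called higher, against 2.36% of all genes. Both shares were thus under those of all genes. No adjusted p of the 4 named genes was under 0.05 by edgeR at either age.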

How the results depend on the processing

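The count of called genes, 0 by edgeR, was 220 with DESeq2, 0 to 68 when each library was left out in turn (68 without corrected replicate 3) and 48 with WT replicate 3 and corrected replicate 3 left out together, an alternative chosen after seeing the data. All other alternatives gave 0. The Dmd difference was -0.43 with DESeq2 (adjusted p = 0.000291), -0.48 to -0.35 with 1 library left out and -0.53 with both left out (edgeR adjusted p = 0.0423), and over the 16 alternatives its adjusted p ran from 0.000291 to 0.409. Genes lower at an unadjusted p under 0.05 numbered 346 to 761 with 1 library left out, the lowest without corrected replicate 1 (346) and replicate 2 (387). The median was 0.64 to 0.85 for the interferon list, 0.45 to 0.69 for MHC class I, 0.63 to 0.84 for MHC class II and 0.72 to 1.15 for the macrophage list over the 16 alternatives. Without corrected replicate 2 the resident-type macrophage median fell to 0.12, and without corrected replicate 1 the chemokine median fell to 0.34. The sign of the median changed under at least 1 alternative for the slow fibre, bone, marrow, red cell, fat and cell cycle lists, among others whose median was near 0. The cause of these changes was not tested, except that leaving out a library leaves fewer samples. No paired analysis was possible because the labels of the 4-week groups carry no shared replicate numbers. Differences that missed the threshold are not shown to be absent.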

Other observations

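Slc18a1, a vesicular monoamine transporter, and Slamf9, a receptor of the SLAM family, had the third and the second smallest p of all genes and were named after their values were seen, since both lay under the expression minimum for named genes. Slamf9 was at 1.73, 1.59 and 1.70 CPM in WT, 3.83, 4.37 and 3.79 CPM in corrected and 5.22 to 8.16 CPM in delEx44 muscle. Slc18a1 was at 0.441, 0.397 and 0.595 CPM in WT, 3.59, 1.69 and 1.55 CPM in corrected and 0.409 to 0.723 CPM in delEx44 muscle. The corrected libraries were apart from WT for both, and Slc18a1 was higher in corrected muscle than in either other group.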
